A study of Mus musculus with 6 samples.

Results

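Expression of the genes of glycolysis, glycogen storage and the pentose phosphate pathway was described in cultured mammary stem cells of the mouse, kept as organoids, which are cultures that form small tissue-like structures. The genes were taken from a list of 40 spanning glucose uptake, upper and lower glycolysis, lactate production and export, entry of pyruvate into mitochondria, glycogen and the pentose phosphate pathway. Of these, 36 had a probe set that the platform annotation assigns to that gene alone, out of 22180 genes measured in all. The other 4, Pfkfb1, Mpc2, G6pdx and Tkt, are not analysed here. Where a gene had several probe sets, that of highest mean over all arrays stood for it.

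The 6 arrays hold 3 biological replicates of Mll3-null cells and 3 of wild-type (WT) cells. The lines were made by CRISPR, and the study asked what loss of MLL3 does to such cells. MLL3, the product of Kmt2c, is a histone methyltransferase that marks enhancers. The labels do not name the strain, the edited part of the gene, or whether replicates of a group are separate clones or cultures of 1 line. The p-values therefore cover only the spread among these arrays, which may be technical. Values are log2 expression, on which 1 unit is a 2-fold difference.

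Glycolysis splits glucose into pyruvate in the cytosol. Its upper phase spends ATP to prime the sugar, with phosphofructokinase as its main control point, and the lower phase recovers ATP and reduced cofactor. Pyruvate is then either reduced to lactate and exported, or carried into mitochondria and oxidised by pyruvate dehydrogenase, which the PDK kinases switch off. Glucose can instead be stored as glycogen, or sent through the pentose phosphate pathway for NADPH and ribose. Many of the enzymes come as isoforms from separate genes, and a subset is switched on by hypoxia-inducible factors (HIF) when oxygen is low. The mammary epithelium draws on the same glucose supply for lactose synthesis in lactation.

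HIF binds DNA at a short core that reads ACGTG or, with the other purine first, GCGTG. These letters were searched on both strands in the 250 bases before each gene start given by RefSeq (GRCm38.p6), which matched 39 of the 40 genes. Slc2a3 was named only. At least 1 match lay in 42 of 57 start windows of the 39 genes (73.7%), against 44.7% of the windows of all tested genes, and the median GC content of these windows was 60.4% against 55.6%. The form with a leading A occurred in 35.1% of the members' windows and 18.2% of those of all tested genes. The E-box CACGTG, which overlaps that form, occurred in 12.3% and 6.82%. A match is a description of the letters and not of binding. Windows of 3 genes are shown to let their upstream letters be set beside their expression, and were picked with these results known. They are Pgk1 and Pfkp, the members with the smallest unadjusted p, and Ldha, a textbook HIF target. Capitals mark these core letters on either strand, and each sequence runs 5′ to 3′ on the strand of the gene, ending at the base before its start. The windows are chrX:106186850-106187099 on the plus strand for Pgk1, chr13:6648772-6649021 on the minus strand for Pfkp and chr7:46845554-46845803 on the plus strand for Ldha.
Pgk1: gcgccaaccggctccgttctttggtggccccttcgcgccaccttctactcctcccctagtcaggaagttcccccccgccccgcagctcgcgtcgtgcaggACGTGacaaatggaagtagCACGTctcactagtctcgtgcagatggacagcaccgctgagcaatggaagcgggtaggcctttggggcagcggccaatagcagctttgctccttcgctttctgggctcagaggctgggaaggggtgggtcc
Pfkp: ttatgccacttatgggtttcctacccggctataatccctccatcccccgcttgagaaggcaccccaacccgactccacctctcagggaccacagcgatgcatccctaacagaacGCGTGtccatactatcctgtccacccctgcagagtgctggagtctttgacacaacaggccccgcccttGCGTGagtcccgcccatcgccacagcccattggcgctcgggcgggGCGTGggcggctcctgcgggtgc
Ldha: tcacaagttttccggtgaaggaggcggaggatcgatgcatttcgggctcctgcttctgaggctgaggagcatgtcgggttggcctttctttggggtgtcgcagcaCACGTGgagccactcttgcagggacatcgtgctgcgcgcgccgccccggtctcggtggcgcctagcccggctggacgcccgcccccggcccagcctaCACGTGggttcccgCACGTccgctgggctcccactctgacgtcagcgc
Pgk1 held 2 matches, both with the leading A. Pfkp held 3, all with a leading G. The Ldha window held 5 matches by start position, because each of its E-boxes matches on both strands. Ldha has a second RefSeq start, whose window held 1. Of the other members at an unadjusted p under 0.05 by limma, Gys1 held 0 matches and Pfkl 1. Pdk1 held 1 before 1 of its starts and 0 before another. Matches also lay before genes with a lower mean in Mll3-null cells, such as Hk2 (2) and Ppp1r3c (4). The letters were not tested against the differences.

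No member passed the test between Mll3-null and WT cells. The limma test with Benjamini-Hochberg adjustment over all 22180 genes called 0 of the 36 members and 0% of all genes at an adjusted p under 0.05, and the smallest adjusted p among the members was 0.84. At an unadjusted p under 0.05, 5 members had a higher mean in Mll3-null cells and 0 a lower one. That is 13.9% of the members on the higher side, against a background of 2.51% of all genes, and 0 on the lower, against 2.42%. Genes of 1 pathway are not independent of each other, and the members were chosen with earlier results of these data known. The groups did not overlap, with Mll3-null cells on the higher side, for 5 members (Pfkp, Pgk1, Pdk1, Pdk3 and Gys1), or 13.9%, against 5.44% of all genes. Mll3-null cells were on the lower side without overlap for 2 (Pgd and Taldo1), or 5.56%, against 5.31%, a share near the background. By group means 27 members lay higher in Mll3-null cells and 9 lower, with a median difference of 0.20, where 51.5% of all genes lay higher, 48.5% lower and their median difference was 0.01. The number of members past the unadjusted threshold was 2 when WT replicate 2 or WT replicate 3 was left out, and 3 when replicate 2 or replicate 3 of the Mll3-null cells was. The share over all genes was not computed for these fits.

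**Figure D1:**
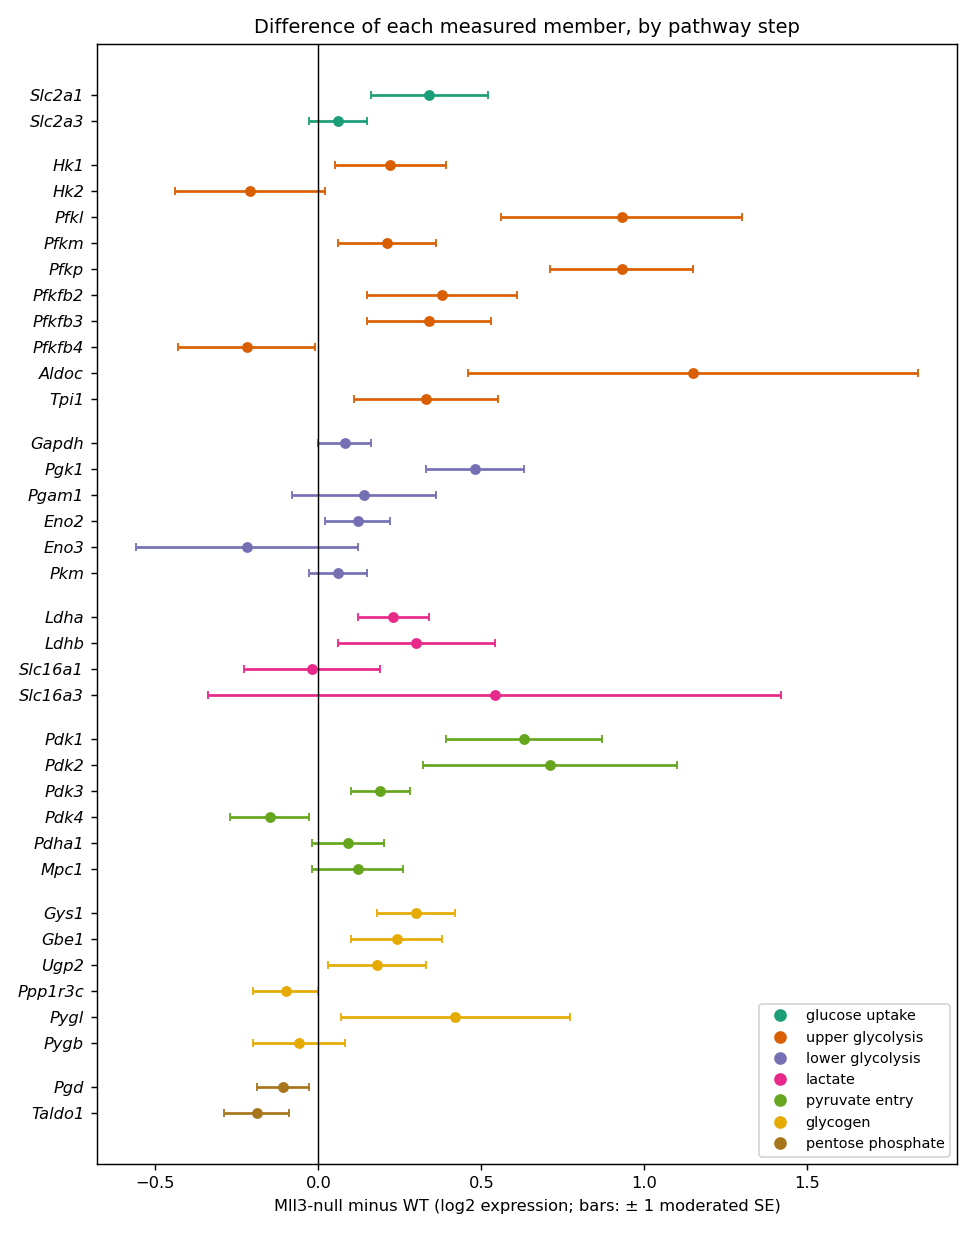
Difference between Mll3-null and WT cells for each of the 36 measured members (x axis, log2 units; points are differences of means, bars ± 1 moderated standard error, colours the pathway steps). Pfkl, Pfkp and Aldoc lie farthest to the right at 0.93, 0.93 and 1.15, and the 2 pentose phosphate genes lie left of 0.

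Some facts of the arrays bear on these values. Kmt2c itself was at 5.84, 6.42 and 6.07 in Mll3-null cells, against 6.63, 5.58 and 5.82 in WT cells, a difference of 0.10 ± 0.29 (SE). The difference changed direction without WT replicate 2 (-0.11) and without Mll3-null replicate 2 (-0.06). The Kmt2c probe set may lie outside the edited part, and this level checks no label. Mll3-null replicate 3 stood apart. There 294 genes lay over 1 log2 unit below the other 5 arrays, against 1 to 24 on any other array. The 7 measured basal and myoepithelial markers summed to 8.12 there (log2 of the summed linear values), against 12.91 and 12.96 on the other Mll3-null arrays and 12.30 to 13.01 in WT. In such a sum the highest markers weigh most. Krt14, Krt17, Trp63 and Acta2 were lower there (6.65, 4.80, 5.02 and 5.47) than on the other 5 arrays. Myh11, Mylk and Cnn1 (5.08, 4.48 and 4.13) lay near the values of some other arrays. The 8 luminal markers summed to 12.66 to 13.04 in Mll3-null cells and 12.48 to 12.83 in WT. Fibroblast, endothelial, immune and adipocyte markers (18 measured) stayed at or under 6.32 in Mll3-null cells and 5.60 in WT cells. WT replicate 2 held the lowest value of the 6 arrays for 18 of the 36 members. In such bulk samples, fewer cells of a type and less RNA per cell cannot be told apart.

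**Figure D2:**
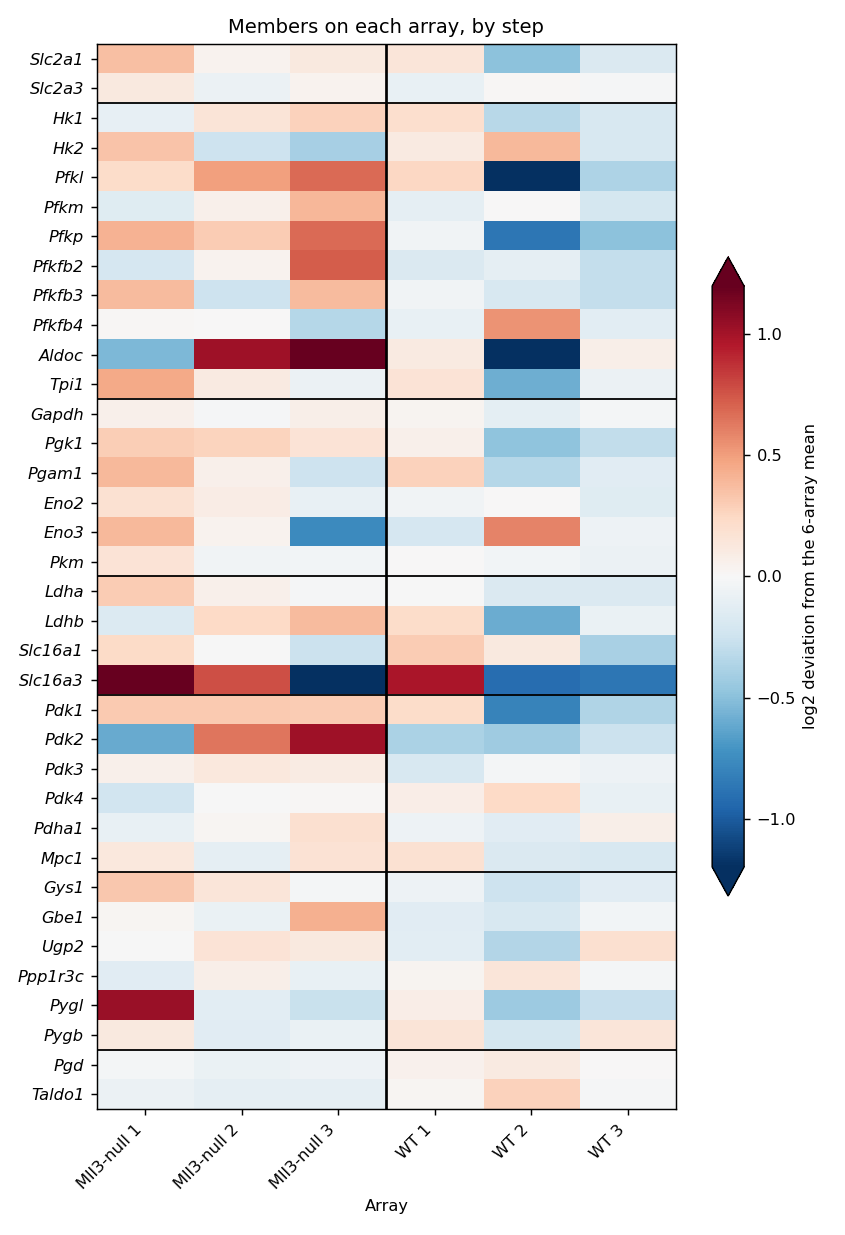
Each measured member (rows, grouped by step between black lines) on each array (columns, Mll3-null left of WT), coloured by the log2 deviation from its 6-array mean, with colours saturating at the ends of the scale. WT replicate 2 is the column with the most low values (lowest array for 18 of 36 members), and Aldoc, Slc16a3 and Pdk2 vary most within the groups.

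Glucose uptake was represented by Slc2a1 and Slc2a3, which encode the transporters GLUT1 and GLUT3. Slc2a1 was at 10.90, 10.59 and 10.66 in Mll3-null cells, against 10.69, 10.05 and 10.37 in WT cells. Mll3-null replicate 1 was the highest array and WT replicate 2 the lowest, and the groups overlapped. The difference was 0.34 ± 0.18 (SE), with an adjusted p of 0.84 by limma. It was 0.18 without WT replicate 2. Slc2a3 was at 3.33, 3.14 and 3.25 in Mll3-null cells, against 3.12, 3.23 and 3.20 in WT cells, which overlapped, on log2 values under 4 for which no detection call was used.

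In upper glycolysis 8 of 10 measured genes had a higher mean in Mll3-null cells, with a median difference of 0.33 that was 0.19 without Mll3-null replicate 3. Pfkp, the platelet-type phosphofructokinase isoform, was at 9.26, 9.15 and 9.52 in Mll3-null cells, against 8.80, 7.98 and 8.35 in WT cells. The Mll3-null values were all above the WT values. The 1.91-fold difference (0.93 ± 0.22 log2, SE, 95% interval 0.42 to 1.45) had an unadjusted p of 0.0041 and an adjusted p of 0.84 by limma, and was 0.74 to 1.14 when any 1 array was left out. Pfkl, the liver-type isoform, was at 9.55, 9.82 and 10.01 in Mll3-null cells, against 9.58, 8.05 and 8.96 in WT cells. WT replicate 2 was far below the other arrays, while WT replicate 1 reached the lowest Mll3-null array. Its difference was the same size, 0.93, but with an SE of 0.37 (adjusted p = 0.84 by limma), and was 0.53 without WT replicate 2. Pfkm, the muscle-type isoform, was at 6.51, 6.71 and 7.05 in Mll3-null cells, against 6.54, 6.66 and 6.44 in WT cells, which overlapped with a difference of 0.21 ± 0.15 (SE).

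The other genes of this phase went both ways. Hexokinases trap glucose in the cell by phosphorylating it. Hk1 averaged 6.81 ± 0.19 in Mll3-null cells and 6.59 ± 0.28 in WT cells, and Hk2, the inducible isoform, 7.21 ± 0.39 in Mll3-null cells and 7.43 ± 0.29 in WT cells (SD, n = 3 each). The PFKFB enzymes make and remove fructose 2,6-bisphosphate, the activator of phosphofructokinase. Pfkfb3, whose product favours synthesis, was at 5.61, 4.98 and 5.61 in Mll3-null cells, against 5.19, 5.04 and 4.94 in WT cells. Pfkfb4 was at 4.91, 4.90 and 4.55 in Mll3-null cells, against 4.81, 5.44 and 4.77 in WT cells. The groups overlapped for both genes, with differences of 0.34 ± 0.19 for Pfkfb3 and -0.22 ± 0.21 for Pfkfb4 (SE). That of Pfkfb3 was 0.55 when Mll3-null replicate 2 was left out and 0.10 with array weights, and that of Pfkfb4 was -0.01 when WT replicate 2 was left out. Pfkfb2 averaged 6.76 ± 0.48 in Mll3-null cells and 6.38 ± 0.09 in WT cells (SD, n = 3 each), and its difference of 0.38 was 0.11 without Mll3-null replicate 3.

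Aldoc, an aldolase isoform best known from brain, had the widest difference of the 36 members at 1.15 ± 0.69 (SE), and is given in full after its values were seen. It was at 10.00, 11.56 and 11.80 in Mll3-null cells, against 10.65, 8.64 and 10.61 in WT cells. Mll3-null replicates 2 and 3 were the highest arrays, while Mll3-null replicate 1 lay below 2 of the WT arrays. The difference was 0.48 without WT replicate 2 and 1.71 without Mll3-null replicate 1. The 8 luminal markers did not share 1 order over the arrays. Within the Mll3-null group replicate 1 was lowest for Aldoc and for 4 of them (Elf5, Kit, Gata3 and Krt18), and highest for 3 others. Elf5, a transcription factor of alveolar progenitors, was at 6.59, 8.51 and 9.02 in Mll3-null cells, against 7.64, 6.0 and 7.39 in WT cells, and Kit, a receptor tyrosine kinase, at 5.92, 8.76 and 8.16 in Mll3-null cells, against 6.78, 5.38 and 6.83 in WT cells. Foxa1, a luminal transcription factor, ran the other way at 9.43, 6.46 and 9.21 in Mll3-null cells, against 8.87, 8.52 and 9.06 in WT cells. The keratin gene Krt19 was at 9.36, 8.22 and 9.22 in Mll3-null cells, against 9.56, 7.64 and 9.52 in WT cells, and Epcam, an epithelial adhesion molecule, stayed between 10.72 and 10.94 on all 6 arrays. Of the 8 luminal markers 6 had a higher mean in Mll3-null cells, and their part in the Aldoc values was not tested. Tpi1, triose phosphate isomerase, averaged 11.42 ± 0.27 in Mll3-null cells and 11.09 ± 0.39 in WT cells (SD, n = 3 each).

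In lower glycolysis 5 of 6 measured genes had a higher mean in Mll3-null cells, with a median difference of 0.10 that was 0.03 without Mll3-null replicate 1. Pgk1, phosphoglycerate kinase and the enzyme of the first ATP-yielding step, was at 11.80, 11.77 and 11.67 in Mll3-null cells, against 11.57, 11.02 and 11.21 in WT cells. The Mll3-null arrays lay close together and all above the WT arrays. The 1.39-fold difference (0.48 ± 0.15 log2, SE, 95% interval 0.12 to 0.84) had an unadjusted p of 0.017 and an adjusted p of 0.84 by limma. Eno2, an enolase isoform best known from neurons, was at 4.75, 4.65 and 4.48 in Mll3-null cells, against 4.52, 4.57 and 4.42 in WT cells, with overlap. Genes at either end of this phase differed little. Gapdh averaged 12.86 ± 0.04 in Mll3-null cells and 12.78 ± 0.07 in WT cells, and Pkm, which encodes pyruvate kinase M, 12.45 ± 0.12 in Mll3-null cells and 12.39 ± 0.04 in WT cells (SD, n = 3 each). The 95% interval of the difference was -0.12 to 0.28 for Gapdh and -0.16 to 0.29 for Pkm. The M1 and M2 splice forms of Pkm are not separated by a value per gene. Pgam1, phosphoglycerate mutase, differed by 0.14 ± 0.22 and Eno3, an enolase best known from muscle, by -0.22 ± 0.34 (SE).

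**Figure D3:**
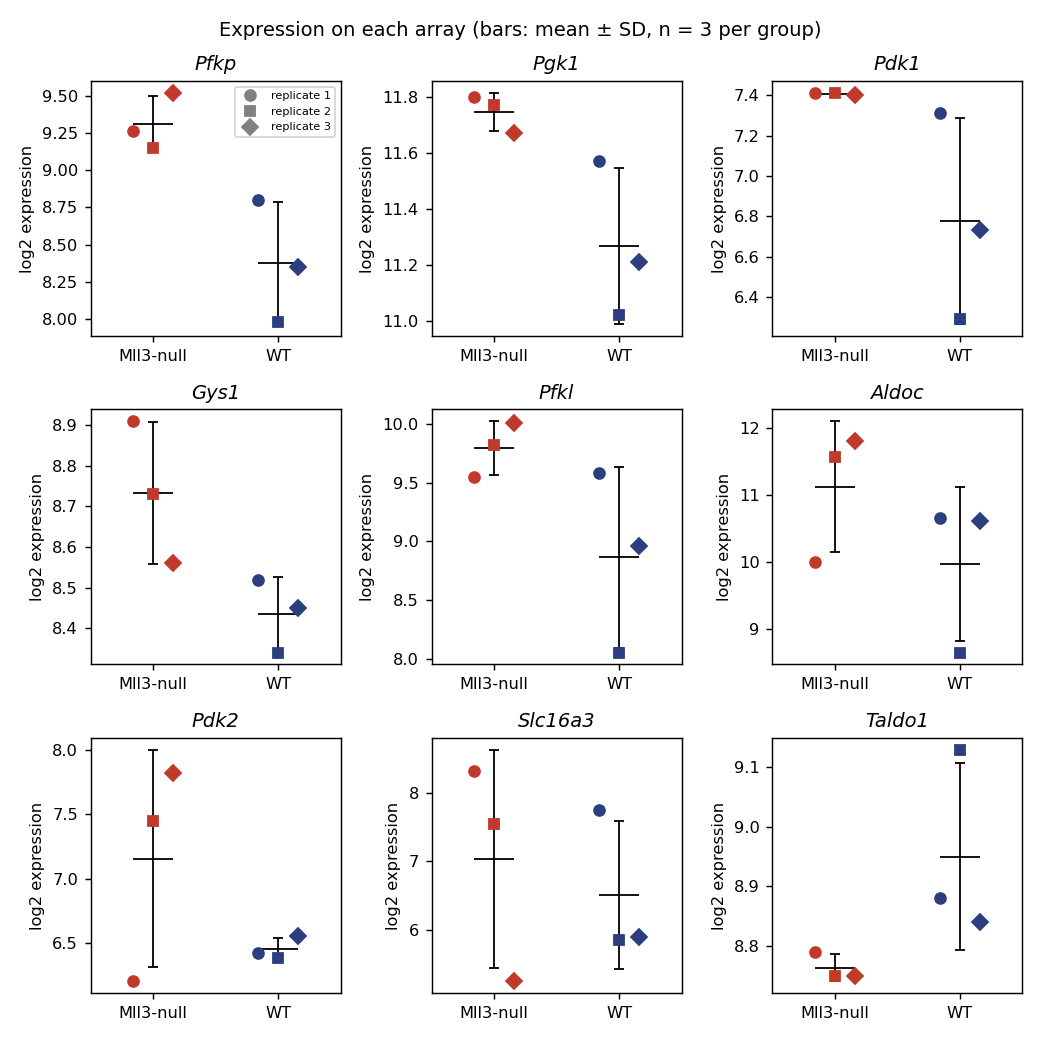
Log2 expression of 9 members on each array (y axes, a separate scale per gene; markers are replicates 1 to 3, black bars the group mean ± SD, n = 3). The groups separate for Pfkp, Pgk1, Pdk1, Gys1 and Taldo1 and overlap for Pfkl, Aldoc, Pdk2 and Slc16a3.

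For lactate, Ldha and Ldhb encode the subunits of lactate dehydrogenase, the A subunit favouring lactate production. Ldha was at 6.74, 6.49 and 6.42 in Mll3-null cells, against 6.43, 6.26 and 6.26 in WT cells. The groups overlapped only where Mll3-null replicate 3 lay just under WT replicate 1, with a difference of 0.23 ± 0.11 (SE) and an adjusted p of 0.84 by limma. Ldhb was at 6.27, 6.68 and 6.82 in Mll3-null cells, against 6.66, 5.84 and 6.36 in WT cells, and the groups overlapped. Slc16a3, which encodes the lactate exporter MCT4 and is given in full after its values were seen, was at 8.32, 7.54 and 5.25 in Mll3-null cells, against 7.75, 5.86 and 5.90 in WT cells. It had the widest spread within the Mll3-null group of all members, with an SD of 1.60, and was lowest in Mll3-null replicate 3, the array with the low basal marker sum. The part of that marker difference in the Slc16a3 value was not tested. Its difference of 0.54 ± 0.88 (SE) was 1.43 when Mll3-null replicate 3 was left out and turned to -0.11 when Mll3-null replicate 1 was. Slc16a1, which encodes MCT1, averaged 8.77 ± 0.24 in Mll3-null cells and 8.79 ± 0.36 in WT cells (SD, n = 3 each).

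At the entry of pyruvate into mitochondria, 3 of the 4 PDK kinase genes had a higher mean in Mll3-null cells, with a median of 0.41 over the 4. Pdk1 was at 7.41, 7.41 and 7.40 in Mll3-null cells, against 7.31, 6.29 and 6.73 in WT cells. The Mll3-null arrays were nearly equal and lay above all WT arrays, though WT replicate 1 came close to them. The 1.55-fold difference (0.63 ± 0.24 log2, SE) had an unadjusted p of 0.038 and an adjusted p of 0.84 by limma, and was 0.39 without WT replicate 2. Pdk3 was at 8.16, 8.22 and 8.19 in Mll3-null cells, against 7.90, 8.07 and 8.03 in WT cells, without overlap, a difference of 0.19 ± 0.09 (SE). Pdk2, given in full after its values were seen, was at 6.20, 7.45 and 7.82 in Mll3-null cells, against 6.42, 6.38 and 6.55 in WT cells. The array order resembled that of Aldoc within the Mll3-null group, replicate 1 being low and replicates 2 and 3 high. Its difference of 0.71 ± 0.39 (SE) was 1.19 when Mll3-null replicate 1 was left out and 0.38 when Mll3-null replicate 3 was. Pdk4, the isoform best known from fasting, was at 3.57, 3.80 and 3.82 in Mll3-null cells, against 3.88, 4.04 and 3.71 in WT cells, with overlap. These are low log2 values, for which no detection call was used. Pdha1, the catalytic subunit gene that these kinases act on, differed by 0.09 ± 0.11, and Mpc1, a subunit of the mitochondrial pyruvate carrier, by 0.12 ± 0.14 (SE).

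In glycogen metabolism 4 of 6 genes had a higher mean in Mll3-null cells, with a median difference of 0.21. Gys1, the glycogen synthase of non-liver tissues, was at 8.91, 8.73 and 8.56 in Mll3-null cells, against 8.52, 8.34 and 8.45 in WT cells. The groups did not overlap, with Mll3-null replicate 3 nearest to the WT range. The 1.23-fold difference (0.30 ± 0.12 log2, SE) had an unadjusted p of 0.042 and an adjusted p of 0.84 by limma. Gbe1, the branching enzyme, was at 7.06, 6.96 and 7.46 in Mll3-null cells, against 6.90, 6.84 and 7.00 in WT cells, with overlap and a difference of 0.24 ± 0.14 (SE) that was 0.10 without Mll3-null replicate 3. Ugp2, which makes the UDP-glucose donor, differed by 0.18 ± 0.15 (SE). Ppp1r3c, which targets protein phosphatase to glycogen, differed by -0.10 ± 0.10 (SE). Glycogen phosphorylases release the stored glucose. Pygl, the liver-type isoform, was at 6.35, 5.19 and 5.05 in Mll3-null cells, against 5.40, 4.88 and 5.04 in WT cells, so that its difference of 0.42 ± 0.35 (SE) rested on Mll3-null replicate 1 and was 0.01 without it. Pygb, the brain-type isoform, was at 8.72, 8.47 and 8.52 in Mll3-null cells, against 8.76, 8.39 and 8.75 in WT cells, with overlap.

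The pentose phosphate genes were the only step with no member at a higher mean in Mll3-null cells, but only 2 of its 4 listed genes were measured. Pgd, phosphogluconate dehydrogenase, a source of NADPH, was at 9.86, 9.81 and 9.83 in Mll3-null cells, against 9.94, 9.99 and 9.89 in WT cells. Taldo1, transaldolase of the non-oxidative branch, was at 8.79, 8.75 and 8.75 in Mll3-null cells, against 8.88, 9.13 and 8.84 in WT cells. The Mll3-null values lay under the WT values for both genes, by small margins. The differences were -0.11 ± 0.08 for Pgd and -0.19 ± 0.10 for Taldo1 (SE), with adjusted p of 0.84 each by limma.

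**Figure D4:**
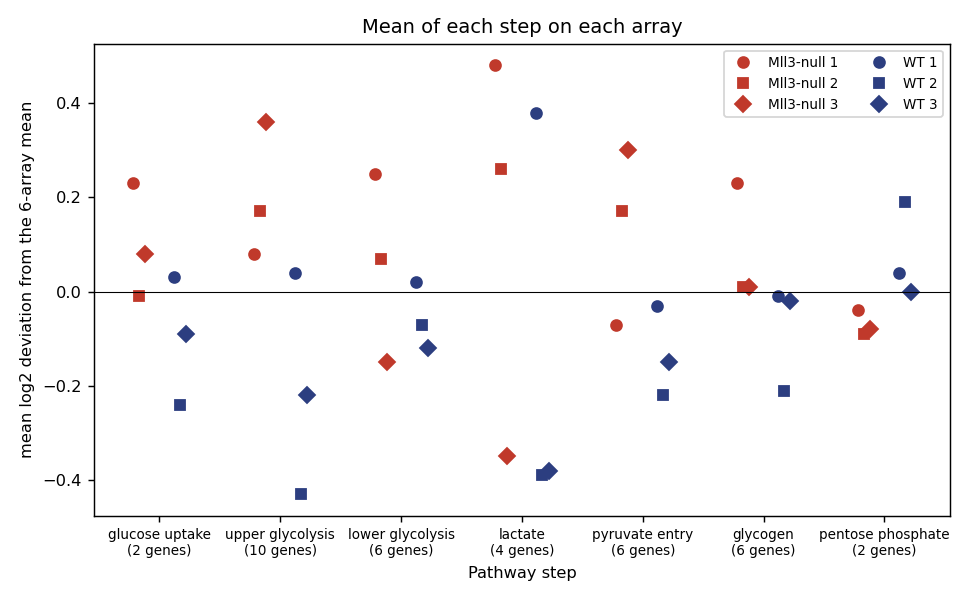
Mean of the measured genes of each step on each array (y axis, log2 deviation from the 6-array mean; red Mll3-null, blue WT; markers are replicates 1 to 3). The Mll3-null means lie above the WT means for upper glycolysis (0.08 to 0.36 against -0.43 to 0.04) and glycogen, and below them for the pentose phosphate genes, while the other 4 steps overlap.

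By step, the mean over the 10 upper glycolysis genes was 0.08, 0.17 and 0.36 in Mll3-null cells, against 0.04, -0.43 and -0.22 in WT cells (log2 deviation from the 6-array mean). Lower glycolysis gave 0.25, 0.07 and -0.15 in Mll3-null cells, against 0.02, -0.07 and -0.12 in WT cells. In these means the order of the Mll3-null replicates was opposite, with replicate 3 highest in upper glycolysis and lowest in lower glycolysis. The single upper genes did not share that order. Hk1, Pfkl, Pfkm, Pfkfb2 and Aldoc rose from Mll3-null replicate 1 to replicate 3, and Hk2, Pfkfb4 and Tpi1 fell. Aldoc had the widest spread of the 10 genes in this group (SD 0.98), and the mean without it was not computed. The lactate step gave 0.48, 0.26 and -0.35 in Mll3-null cells, against 0.38, -0.39 and -0.38 in WT cells, with Slc16a3 among its 4 genes. These means are descriptions and were not tested.

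The members were also split by whether general knowledge names them as HIF targets, a division written with earlier results of these data known. Of the 22 named targets 19 had a higher mean in Mll3-null cells, with a median difference of 0.27. Of the 14 others 8 did, with a median of 0.07. All 5 members past the unadjusted threshold and all 5 without overlap on the higher side were among the 22. Each count is 22.7% of the 22, against 2.51% and 5.44% of all genes in turn, and these shares were not tested. The 3 named targets with a lower mean were Hk2 (-0.21), Pfkfb4 (-0.22) and Ppp1r3c (-0.10). Pkm (0.06) was counted among the 14 others, a placement open to question. The split was not recomputed with Pkm among the named targets. Set beside the 22 are 3 HIF target genes of other pathways, named one by one with earlier results of these data known. They do not come from a list of such genes, and HIF targets outside these pathways are otherwise not shown here. Vegfa, an angiogenic growth factor, was at 9.71, 9.39 and 9.46 in Mll3-null cells, against 8.61, 8.06 and 8.28 in WT cells. Its difference was 1.21 ± 0.16 (SE). The stress gene Ndrg1 differed by 1.27 ± 0.19 and Car9, a carbonic anhydrase, by 1.49 ± 0.41 (SE), all with an adjusted p of 0.84 by limma.

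Isoform pairs were compared within each array, which asks whether 2 isoforms changed unequally and not which is more abundant. Of 14 pairs listed, 13 were measured, and an exact permutation test (two-sided) was run on each. With 3 arrays a group it cannot give a p below 0.1. The smallest p adjusted over the 13 pairs was 0.65. Pfkp minus Pfkm was 2.75, 2.45 and 2.47 in Mll3-null cells, against 2.26, 1.32 and 1.92 in WT cells, a difference of 0.72 (exact permutation p = 0.1, adjusted 0.65) that was 0.47 without WT replicate 2. Pdk4 minus Pdk1 was -3.84, -3.61 and -3.58 in Mll3-null cells, against -3.43, -2.25 and -3.02 in WT cells, a difference of -0.78 (exact permutation p = 0.1, adjusted 0.65) that was -0.45 without WT replicate 2. Most of that came from Pdk1, which differed by 0.63 against -0.15 for Pdk4. Pdk4 lay at low values of 3.57 to 4.04, for which no detection call was used. The groups did not overlap in these 2 pairs and overlapped in the other 11. Pygl minus Pygb differed by 0.48 (exact permutation p = 0.2, adjusted 0.74), or 0.15 without Mll3-null replicate 1. Pfkfb4 minus Pfkfb3 differed by -0.56 (exact permutation p = 0.3, adjusted 0.74), or -0.34 without WT replicate 2. Pfkp and Pfkl differed by equal amounts on average, with a pair difference of 0.00 that ran from -0.15 to 0.21 when 1 array was left out. Hk2 minus Hk1 was 1.05, 0.22 and -0.05 in Mll3-null cells, against 0.53, 1.35 and 0.64 in WT cells, a difference of -0.43 with overlap that was -0.17 without WT replicate 2. Ldha minus Ldhb differed by -0.08 and Pdk1 minus Pdk2 by -0.08, both with overlap and with directions that turned when single arrays were left out.

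**Figure D5:**
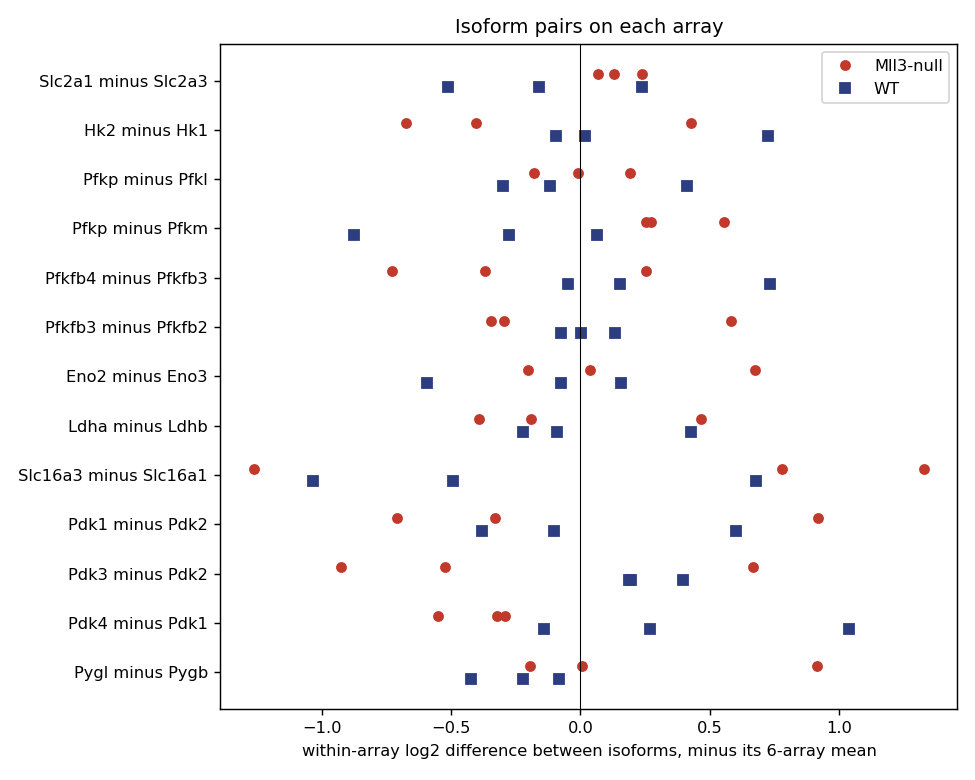
The 13 measured isoform pairs on each array (x axis, log2 difference between the isoforms on that array, centred on the 6-array mean of the pair; red circles Mll3-null, blue squares WT). Red and blue separate for Pfkp minus Pfkm and for Pdk4 minus Pdk1 and mix in the other 11 pairs.

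A further 73 genes of the same pathways were listed, with earlier results of these data known, and 66 of them were measured. None passed the limma test, 36 had a higher and 30 a lower mean in Mll3-null cells, and their median difference was 0.01, as over all genes. At an unadjusted p under 0.05 there were 2 on the higher side, or 3.03%, against 2.51% of all genes, a share near the background, and 5 on the lower, or 7.58%, against 2.42%. Pck2, the mitochondrial phosphoenolpyruvate carboxykinase, was at 9.17, 8.72 and 9.74 in Mll3-null cells, against 8.09, 7.73 and 7.94 in WT cells. The phosphorylase kinase subunit gene Phkg1 differed by 0.31 ± 0.13 (SE). On the lower side Shpk, which phosphorylates sedoheptulose, differed by -0.45 ± 0.13, and Prps2, a ribose phosphate pyrophosphokinase, by -0.32 ± 0.11 (SE). Of the 10 further pentose phosphate and ribose genes 6 had a lower mean. The phosphoglucomutase family gene Pgm2 differed by -0.51 ± 0.18, the glycogen synthase of liver Gys2 by -0.38 ± 0.14, and the transporter gene Slc2a9 by -0.40 ± 0.16 (SE). All 7 had an adjusted p of 0.84 by limma. Gys2 (2.98 to 3.62) and Phkg1 (4.18 to 4.74) lay at low log2 values on all arrays, for which no detection call was used.

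Several of these genes have more than 1 probe set or near-identical copies elsewhere in the genome. The second Slc2a1 probe set differed by 0.28, against 0.34 for the one used. That of Pgam1 differed by 0.38, against 0.14 for the one used. Pdk1's second probe set, at a mean of 2.74, differed by 0.12, and that of Mpc1 by -0.02, against 0.12 for the one used. The 3 probe sets of Gapdh differed by 0.08, 0.09 and 0.18. Processed pseudogenes are known for Gapdh, Ldha, Pgk1, Pgam1 and Tpi1, and cross-hybridisation was not tested. Whether the probe sets used for Gapdh, Pgam1 and Mpc1 lie at the gene itself or at a copy was not checked.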

How the data were processed

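RNA from 3 Mll3-null and 3 WT samples was measured on single-channel Affymetrix arrays. Per the submitters' processing notes the authors used Affymetrix Expression Console. No label names a version, summarization method or genome build. The unit of the deposited values was read as log2 expression, as they run from 1.72 to 13.56 with near-equal quartiles, so the arrays share a scale and a change in total RNA cannot be seen. No detection values were used, and precision is limited by the number of arrays.

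Of 41345 probe sets, 23521 carry 1 gene symbol in the platform annotation, 1814 several and 16010 none. The highest-mean probe set stood for each of 22180 genes. The 2 groups were tested two-sided in R 4.3.3 by limma 3.58.1 (eBayes after lmFit, with genotype as the single term), adjusted by Benjamini-Hochberg over every gene, and called at 0.05. Each difference is the Mll3-null mean less the WT mean. Isoform pairs were compared by an exact permutation test. The fit was tested on simulated data.

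The members and lists were chosen with earlier results of these data known. Full array values were given for the 2 members of each step with the smallest p, members at an unadjusted p under 0.05 and the members of the 4 leading isoform pairs; others are marked as chosen after their values were seen. Of the further pathway genes, those at an unadjusted p under 0.05 were named. Alternatives covered the spread model, array weights, dim-gene filters, normalization, the probe set, a replicate block, a threshold of 0.01 and leaving out each array.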

Additional observations from a re-analysis of the deposited data

How the results depend on the processing

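No member and no further pathway gene was called under any of the 15 alternative settings or at a threshold of 0.01, and the smallest adjusted p of a member was 0.12. The direction held for 31 of 36 members in every alternative that kept them. It turned for 5 when single arrays were left out: Eno3 (-0.47 to 0.11), Pgam1 (-0.02 to 0.31), Pkm (-0.01 to 0.10), Slc16a1 (-0.22 to 0.12) and Slc16a3 (-0.11 to 1.43), and for Kmt2c (-0.11 to 0.41). Leaving out some 1 array turned the difference or moved it by over 1.5 times for 31 of 36 members, all but Pfkp, Pgk1, Pdk3, Gys1 and Pgd, for 13 of 13 pairs and for 6 of 7 step medians, all but pyruvate entry. Pair differences that turned were Ldha minus Ldhb (-0.33 to 0.12), Pdk1 minus Pdk2 (-0.56 to 0.25), Pfkfb3 minus Pfkfb2 (-0.34 to 0.12) and Pfkp minus Pfkl (-0.15 to 0.21). Leaving out 1 array gave 2 to 6 members higher at an unadjusted p under 0.05, 5 to 12 with all Mll3-null arrays above (12 without WT replicate 1, 11 without Mll3-null replicate 1, 9 without Mll3-null replicate 2; fewer arrays separate more easily), 2 to 3 below, and 24 to 29 with a higher mean. The share over all genes was not computed for any alternative setting, so these counts have no background beside them. Both filters on dim genes gave 3 members at an unadjusted p under 0.05. They left the values of the kept genes as they were and refitted the spread that limma shares across genes. Both gave 0.34 for the glucose uptake median, since they remove Slc2a3. The upper glycolysis median ran from 0.19 (without Mll3-null replicate 3) to 0.40, the lower glycolysis median from 0.03 (without Mll3-null replicate 1) to 0.15, and the pentose phosphate median from -0.19 to -0.09 (without WT replicate 2). The glycogen median ran from 0.11 (without Mll3-null replicate 1) to 0.29, and the lactate median from 0.01 (without Mll3-null replicate 1) to 0.39.

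No label says whether same-numbered replicates share an animal, line or day. Deviations of same-numbered arrays correlated at 0.03, 0.08 and 0.31, and Mll3-null replicate 1 correlated best with WT replicate 2 (0.22). With the replicate block 0 members were called and 6 were higher at an unadjusted p under 0.05, against 5 without it. The share over all genes with the block was not computed.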

Other observations

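Among the further pathway genes of the lactate step, 3 had the widest spread between replicates, and were picked after their values were seen. Ldhd, a mitochondrial lactate dehydrogenase for the D form, was at 7.02, 8.39 and 8.69 in Mll3-null cells, against 7.77, 6.66 and 7.89 in WT cells. Slc16a7, which encodes the monocarboxylate transporter MCT2, was at 4.43, 5.15 and 5.50 in Mll3-null cells, against 4.97, 3.64 and 4.68 in WT cells. Both were highest in Mll3-null replicates 2 and 3 and lowest in WT replicate 2, as Aldoc was. Emb, embigin, a partner protein of these transporters, was at 11.84, 11.24 and 8.37 in Mll3-null cells, against 11.48, 11.89 and 11.55 in WT cells. Its low value in Mll3-null replicate 3 stands beside that array's low basal marker sum of 8.12, and the part of one in the other was not tested. Bsg, basigin, the other partner protein, was at 11.63, 11.57 and 11.98 in Mll3-null cells, against 11.71, 11.46 and 11.59 in WT cells. None passed the limma test, with adjusted p of 0.85 for Ldhd, 0.84 for Slc16a7, 0.84 for Emb and 0.86 for Bsg.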
